A study of Meleagris gallopavo with 18 samples.

Results

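The 200 level genes described here are the loci of the turkey reproductive tract whose share of the RNA moved least between libraries. They were chosen from a matrix of gene counts of 6 male turkeys that covers 3 tissues, namely testis, epididymis and ductus deferens. Each count was divided by the total of its library and multiplied by 1000000, and this scaled count is called CPM here. The epididymis library of bird 12 was left out, the 7917 genes with a mean of at least 20 CPM over the other 17 libraries were kept, and the 200 with the lowest coefficient of variation (CV, the standard deviation divided by the mean) were taken, of 56037 genes in all. The values that chose them are therefore given as a description. Gene-level fits of these values are printed, but nothing is read from them.

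All males were photostimulated at 26 weeks of age with 14 h of light and 10 h of darkness and were sampled at 38 weeks. Semen was collected weekly by abdominal massage, and no other treatment is given in the sources used here. The groups differed only by tissue. By the sample labels, each of the birds 2, 11, 12, 14, 15 and 16 gave 1 library of polyadenylated RNA per tissue. The libraries of a tissue are thus separate animals, and the tissues share their animals. The genotype of the birds is not given in the sources used here. Every library is a whole piece of tissue, and a change in the mix of cells cannot be told apart from a change within cells.

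Genes that every cell needs, such as those for protein synthesis, protein breakdown and vesicle traffic, tend to be transcribed at a similar rate in many tissues, and such genes are used as internal references when other transcripts are measured. The testis is filled with germ cells that pass through meiosis and build sperm, while the epididymis and the ductus deferens are ducts lined with epithelium that carry and store the sperm. The testis is also known for transcribing a wide range of loci and for transcript forms that other tissues do not use. A locus can thus keep its total level while the transcripts that make up this total change, and both were measured here.

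The libraries held between 64143451 and 118625345 counts. The epididymis library of bird 12 stood apart, with 17596 genes with a count, against 27459 to 34711 in the other epididymides, and with 48.9% of its counts on its 20 highest genes. Of the markers of cell types, only 3 epithelial genes could be matched to a locus. LRP2, an endocytic receptor of absorptive epithelia, was at 444 ± 93.0 CPM in the epididymis (SD, n = 5), with 1.75 ± 1.70 CPM for the ductus deferens and 11.3 ± 7.48 CPM for the testis (SD, n = 6 each). HNF4A, a transcription factor of such epithelia, had the same order of tissues, and KRT19, a keratin of simple epithelia, was highest in the ductus deferens at 519 ± 296 CPM (SD, n = 6). In the library left out, LRP2 was at 192 CPM, below the 283 to 514 CPM of the other epididymides. Markers of germ cells, Sertoli and Leydig cells, smooth muscle, blood vessels and blood cells were not analysed here, because their loci could not be matched.

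None of the 200 level genes could be matched to a gene symbol. The files name loci of an assembled annotation and do not pair them with names, and lists of reference genes and of pathways common to all cells could therefore not be counted among them. However, 177 of the 200 level genes (88.5%) held counts of at least 1 transcript of the Ensembl annotation. The same held for 77.4% of the 7917 genes and for 22.8% of all genes. In the 169 level genes whose Ensembl transcripts could be assigned by their sums, 133 had 1 such transcript, 33 had 2 and 3 had 3. The other 23 level genes had counts on newly assembled transcripts alone.

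The CV of the level genes ran from 9.46% to 20.8% (median 18.1%). Over the 7917 genes the median was 54.8% and the highest 404%. The limit of 200 did not fall into a gap, since MSTRG.49680, the last inside, had a CV of 20.84% and MSTRG.37379, the first outside, had one of 20.85%. Only 2 level genes were below 10% and 27 below 15%. The mean CPM of the level genes, which is not adjusted for transcript length, ran from 20.2 to 955 (median 68.6), and 62 of them were at 100 CPM or more. Between the lowest and the highest of the 17 libraries they differed by 1.38-fold to 3.85-fold (median 1.96-fold).

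**Figure D1:**
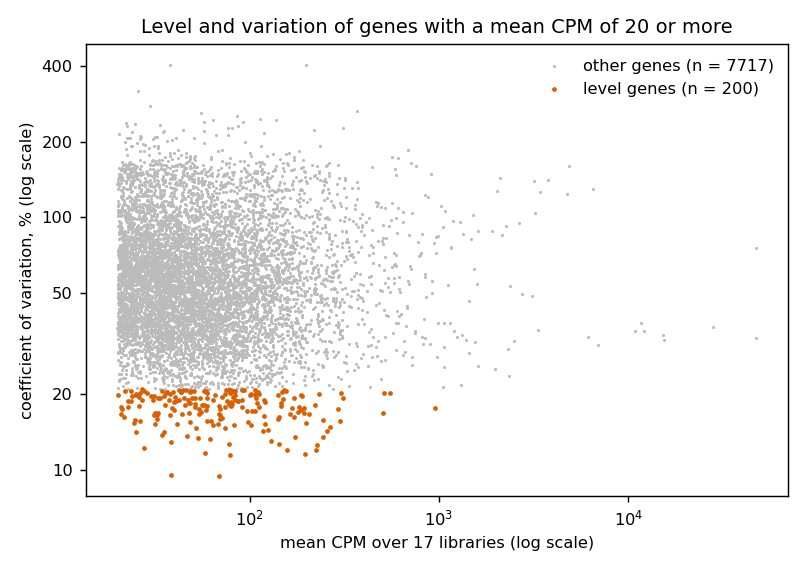
The CV in percent is plotted against the mean CPM over the 17 libraries for the 7917 genes with a mean of at least 20 CPM, both on log scales. The 200 level genes (orange) form the lower edge of one continuous cloud, at CVs of up to 20.8%, and the rest of the 7917 genes are in grey.

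MSTRG.18469 had the lowest CV of all, 9.46%. The testes were at 62.6, 66.6 and 72.4 CPM (lowest, median and highest), the ductus deferens at 56.7, 68.4 and 84.2 CPM, and the epididymides were at 68.4, 69.3, 66.0, 66.2 and 72.0 CPM in birds 2, 11, 14, 15 and 16. The testis and epididymis values lay inside the range of the ductus deferens, and birds 14 and 15 were the highest there. Of its counts, 96.2% were on 1 Ensembl transcript, ENSMGAT00000005687.

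MSTRG.27199, at rank 2 with a CV of 9.54%, was less even between tissues than between birds. The ductus deferens was at 35.2 ± 2.76 CPM (SD, n = 6), the epididymis at 38.4 ± 1.3 CPM (SD, n = 5) and the testis at 41.6 ± 3.13 CPM (SD, n = 6). Their ranges overlapped, since the testes began at 36.2 CPM and the ductus deferens reached 39.8 CPM.

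MSTRG.25641, at rank 4, had nearly equal means. Testes were at 198 ± 36.7 CPM (SD, n = 6), epididymides at 196 ± 13.6 CPM (SD, n = 5) and the ductus deferens at 197 ± 12.5 CPM (SD, n = 6). The birds differed far more than the tissues. Birds 11 and 2 were the lowest and the highest testis, at 141 and 247 CPM, and both lay outside the 176 to 210 CPM of the 11 duct libraries used.

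**Figure D2:**
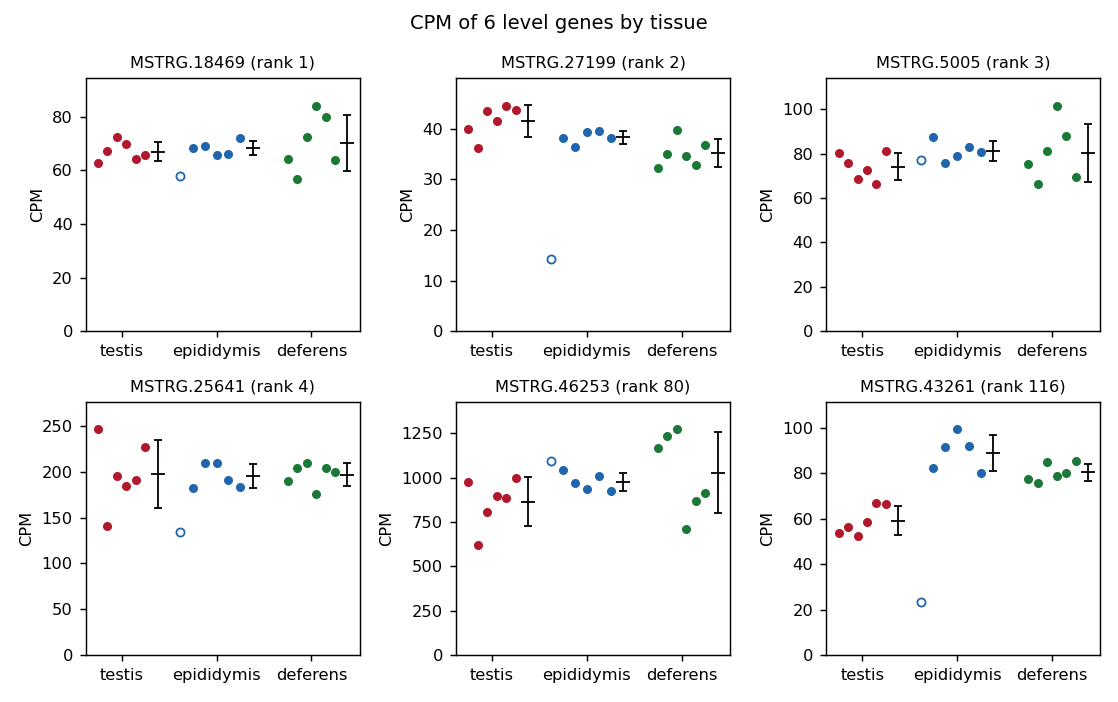
CPM of 6 level genes in each library, by tissue, with birds 2, 11, 12, 14, 15 and 16 from left to right as filled points and the mean with SD as a black bar (n = 6, 5 and 6). The open circle is the epididymis of bird 12, which took no part in the choice. MSTRG.43261 is the gene of the 6 whose testis values (52.5 to 66.9 CPM) lie below all other filled points.

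The level gene with the most counts was MSTRG.46253, with a mean of 955 CPM and a CV of 17.5%, all of them on 1 newly assembled transcript. The testes were at 620.0, 890.0 and 1000.2 CPM (lowest, median and highest) and the ductus deferens at 712, 1040.2 and 1273 CPM. In the ductus deferens it fell into birds 2, 11 and 12, at 1164 CPM or more, and birds 14, 15 and 16, at 916 CPM or less. MSTRG.16348, next with 554 CPM, showed that a low CV over 17 libraries can hold a single low library. Bird 11 had 261 CPM in its testis, whereas the other 16 values ran from 450 to 793 CPM.

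The means of the 3 tissues lay within 1.5-fold of each other in 199 of the 200 level genes, against 17.8% of the 7917 genes. The ratio of the highest to the lowest tissue mean ran from 1.01 to 1.51 (median 1.21, against 2.59 over the 7917 genes). The exception was MSTRG.43261, for which the ductus deferens was at 80.5 ± 3.87 CPM (SD, n = 6), the epididymis at 89.1 ± 7.87 CPM (SD, n = 5) and the testis at 59.2 ± 6.29 CPM (SD, n = 6). Its testis values did not overlap with those of either duct. Between-tissue differences made up 83.7% of its sum of squares, the highest of the level genes, where the median was 24.5%, against 58.3% over the 7917 genes.

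Within a tissue, the level genes had a median CV of 10.1% for the epididymis, 15.2% for the ductus deferens and 17.8% for the testis. The 7917 genes had the same order, with 18.6%, 29.5% and 41.2%. The low spread of the epididymis rests on 5 libraries, since the one that stood apart was left out.

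Libraries differed in how far the level genes lay from their means. The testis of bird 11 held the lowest of the 17 values in 62 level genes and the highest in 24. The ductus deferens of the same bird held the lowest value in 27. In the plot of the level genes by library, the testis of bird 11 had the widest spread of the 17, with an SD of 0.48 for the log2 of CPM over the mean, against 0.15 to 0.32 in the other 16. When bird 11 was left out, only 121 of the 200 level genes were chosen again. Together the level genes took between 1.78% and 2.05% of the counts of the 17 libraries.

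**Figure D3:**
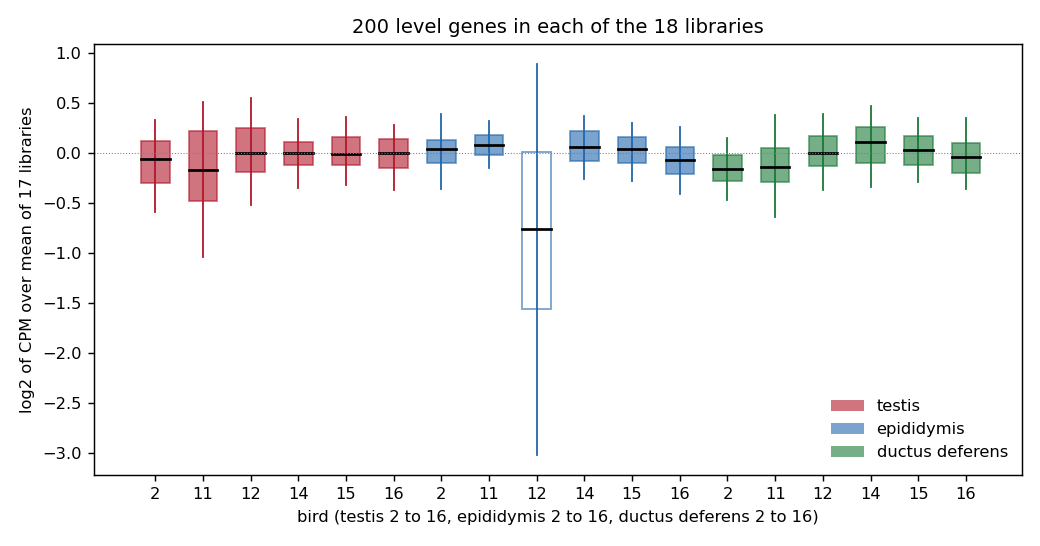
Log2 of the CPM over the mean of the 17 libraries for the 200 level genes in each library, by tissue and bird. Black lines are medians, boxes span the 25th to the 75th percentile and thin lines the 5th to the 95th percentile. The open box is the epididymis of bird 12, which took no part in the choice and has a median of -0.77.

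Which genes count as level depended on how the libraries were scaled. TMM (trimmed mean of M-values) and median-of-ratios scaling correct library totals for the few genes that take many reads. Only 88 of the 200 level genes were among the 200 of lowest CV with TMM and 96 with the median of ratios, and 57 were among both. Of the first 15 by rank, 10 were among both, including the first 5. Scaling also moved the level genes as a block. Their median log2 ratio of testis to ductus deferens was -0.03 by total counts, -0.38 by TMM and 0.01 by RLE (relative log expression, the median of ratios as edgeR computes it). For testis to epididymis it was -0.07, -0.15 and 0.27, so its sign changed with the scaling. For epididymis to ductus deferens it was 0.06, -0.20 and -0.23, and its sign changed as well. The median of the 7917 genes moved by a similar amount, to -0.20 and 0.21 for testis to epididymis under TMM and RLE from -0.11 by totals. The small tissue differences of the level genes are therefore values relative to one scaling, and the CPM means given above are those by total counts.

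**Figure D4:**
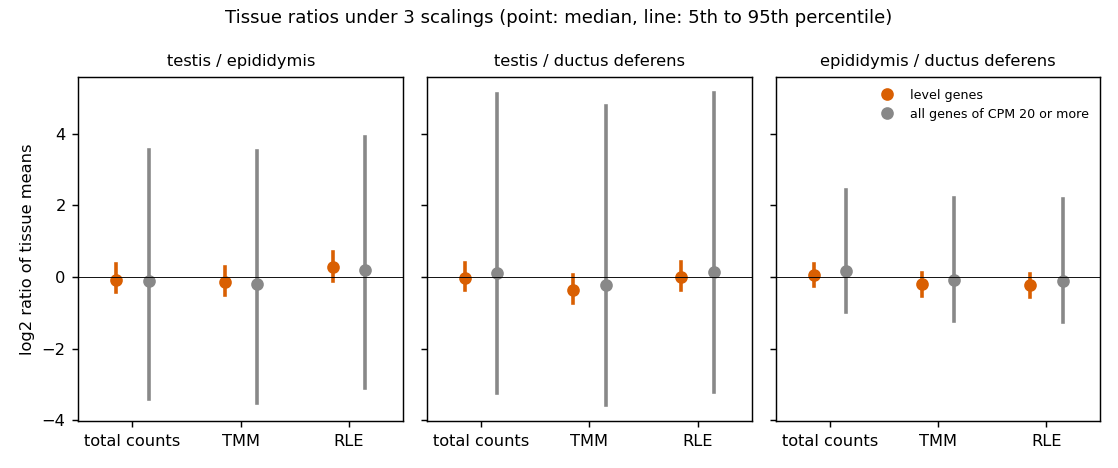
Log2 ratio of tissue means for the 200 level genes (orange) and all 7917 genes (grey) under 3 scalings, as the median (point) and the 5th to 95th percentile (line). The line of the level genes stays short in every panel, and their median shifts with the scaling, from -0.03 to -0.38 between total counts and TMM for testis to ductus deferens.

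In the gene-level fits (quasi-likelihood test of edgeR, p adjusted by Benjamini-Hochberg over all genes tested, limits of 0.01 for the adjusted p and of 1 for the size of the log2 fold change), 0 of the 200 level genes were called between testis and epididymis, where 44.7% of 31567 genes were called. The number was 0 of 200 for testis to ductus deferens (45.3% of 27550 genes called) and 0 of 200 for epididymis to ductus deferens (10.3% of 24009 genes). DESeq2 called none under the same limits. At an unadjusted p under 0.05 the numbers were 36, 57 and 53 level genes, with 63.1%, 63.2% and 31.2% of all genes tested. They were 13, 15 and 55 with RLE size factors and 21, 19 and 56 with DESeq2. For RLE and DESeq2 the share of all genes tested at this unadjusted p was not counted. Without the limit on the fold change, 5, 11 and 3 level genes passed, with 45.5%, 46.2% and 11.8% of all genes tested. The rule had used these same contrasts, so nothing is read from any of these counts.

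The epididymis of bird 12 took no part in the choice. In it, 56 of the 200 level genes (28.0%) lay inside the range of the 17 libraries, 117 lay below and 27 above. Over the 7917 genes, 57.5% lay inside, but the ranges of the level genes are narrow by the way they were chosen. The median level gene was at 0.587 of its mean and the median of the 7917 genes at 0.370. Within 1.5-fold of the mean lay 31.5% of the level genes and 22.5% of the 7917 genes. The median ratio depended on scaling. With TMM it was 1.04 for the level genes and 0.666 for the 7917 genes, with 60 level genes below and 69 above the range. With RLE it was 1.13 for the level genes and 0.718 for the 7917 genes.

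The level genes did not shift together in this library. The ratio ran from 0.0012 to 3.27. MSTRG.12856, at 31.4 to 56.9 CPM in the other 17 libraries, had 3 counts in it, and MSTRG.29560, at 67.9 to 160 CPM elsewhere, had 50 counts or 0.776 CPM. In contrast, MSTRG.5005 was at 76.9 CPM there with a mean of 78.4 CPM, and MSTRG.27875 at 78.8 CPM with a mean of 78.1 CPM. With 1 library no test was possible, and the part that RNA quality or the mix of cells had in these values was not tested.

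The share of a gene's counts that each of its transcripts takes was not used by the rule, which saw only gene totals. All transcripts could be assigned in 192 level genes, and 159 of these had at least 2 transcripts. The transcript with the most counts was the same in all 17 libraries in 67 of the 159 (42.1%), and the same held for 29.7% of the 6012 such genes among the 7917. In 47 level genes (29.6%) the leading transcript by tissue mean was not the same in all tissues, against 36.4% of the 6012 genes. Where all transcripts were assigned, level genes had a median of 2 transcripts (at most 17) and the 7917 genes one of 3 (at most 85). The part that the number of transcripts had in these percentages was not tested. The CV of the leading transcript had a median of 26.6% where that of the gene was 18.1%. Over the 6012 genes these medians were 73.4% and 54.2%. The CV of the leading transcript was above 50% in 30 of the 159 level genes (18.9%) and in 74.4% of the 6012 genes, and it reached 148% and 409%. The rule held the CV of every level gene at 20.8% or less, so in those 30 the total had to vary less than its leading transcript. The leading transcript held a median of 73.5% of the counts of a level gene. Its CV is thus tied to the CV that chose the genes, and these CVs are given as a description.

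Changed transcript usage was tested with edgeR's diffSpliceDGE over all genes with at least 2 transcripts that passed the filter on low counts. A gene was called at a Benjamini-Hochberg adjusted p under 0.01, with at least 1 transcript whose mean share differed by 20 percentage points or more. Between testis and epididymis, 7 of 143 level genes tested were called, and 7.67% of the 9854 genes tested. Between testis and ductus deferens, 13 of 138 were called, and 9.37% of 8504 genes. Between epididymis and ductus deferens, 0 of 135 were called, and 1.01% of 7855 genes. Of the tested genes with a mean of at least 20 CPM, 8.89%, 10.9% and 1.14% were called, in the same order. These counts are read as nothing particular to the level genes. The first and second comparison share the testis libraries, and 6 level genes were called in both. How many of all genes tested were called in both was not counted, so nothing is read from this number.

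For epididymis to ductus deferens, 3 level genes had an unadjusted p under 0.05, and the share of all genes tested was not counted. The F test per gene called 1 and limma's diffSplice called 1, with 1.8% and 2.43% of all genes tested. Transcript shares varied widely between birds of a tissue, so a missing call does not show that a share was equal. By a rule without a test, in which the share ranges of 1 transcript must not overlap and the means must be 20 points apart, 17 of 143, 18 of 138 and 5 of 135 level genes passed in the order given above, with 15.3%, 13.9% and 3.45% of all genes tested.

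In each of the 14 level genes called in either testis comparison, the transcript with the smallest p was a newly assembled one with a higher mean share in the testis, and its mean share in the duct was at most 1%. The same direction held for 80.3% of the 756 genes called between testis and epididymis and for 90.2% of the 797 called between testis and ductus deferens. It was therefore the usual direction of calls in these tissues. How often this transcript was newly assembled, or at most 1% in the duct, was not counted over all called genes. Nothing particular to the level genes is read from these traits. This transcript differed by 20 points itself in 5 of the 7 and in 8 of the 13 level genes. In the rest it differed by less than 20 points, and the large share difference belonged to a transcript whose own test did not pass. The transcript with the smallest p was also the one of largest difference in 1 of the 7 and 2 of the 13. In MSTRG.45874, ENSMGAT00000012812 and MSTRG.45874.1 held all counts. Their share differences are thus equal in size, and which is the largest is arbitrary there. How often these traits held over all called genes was not counted, and nothing particular to the level genes is read from them.

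MSTRG.5005 joined a level total to a change in transcripts. It had rank 3. The ductus deferens was at 80.3 ± 13.0 CPM (SD, n = 6), the epididymis at 81.1 ± 4.45 CPM (SD, n = 5) and the testis at 74.2 ± 6.17 CPM (SD, n = 6). Transcript MSTRG.5005.4 held 44.6%, 37.6%, 40.0%, 39.4%, 31.9% and 35.4% of its counts in the testes of birds 2, 11, 12, 14, 15 and 16. It had no count in any of the 12 duct libraries. The groups did not overlap, and the adjusted p was 4.9e-08 for the epididymis and 1.1e-09 for the ductus deferens.

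A different transcript of the same gene took the larger share in the ducts. MSTRG.5005.1 was at 6.31%, 9.16% and 23.3% in the testes (lowest, median and highest) and at 58.3%, 59.3%, 65.6%, 65.5% and 66.4% in the epididymides of birds 2, 11, 14, 15 and 16. In the ductus deferens it was between 57.0% and 68.7% in 5 birds and at 4.44% in bird 11, where MSTRG.5005.5 held most of the counts. The mean difference was 51.9 points between testis and epididymis, with groups that did not overlap, but the test of this transcript alone did not pass after adjustment. The Ensembl transcripts ENSMGAT00000016241 and ENSMGAT00000016243 held 33.3% of the counts of the gene over the 17 libraries.

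MSTRG.20335 showed the same kind of change on a smaller scale. Its transcript MSTRG.20335.2 held 17.6%, 29.0% and 47.2% of the counts in the testes (lowest, median and highest). It was at 1.76% in the epididymis of bird 2, at 0.031% in that of bird 11 and without a count in the other 3 epididymides and all 6 ductus deferens libraries. The groups did not overlap, with a mean difference of 29.9 points to the epididymis (adjusted p 0.0034) and of 30.3 points to the ductus deferens (adjusted p 7.3e-09). Without bird 11, 14, 15 or 16 the epididymis comparison no longer passed, with adjusted p between 0.018 and 0.025. Its Ensembl transcript ENSMGAT00000007473 was the leading one by mean in each tissue, with 78.1% ± 11.1 of the counts in the ductus deferens (SD, n = 6), 77.1% ± 2.92 in epididymides (SD, n = 5) and 58.7% ± 10.4 in testes (SD, n = 6).

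**Figure D5:**
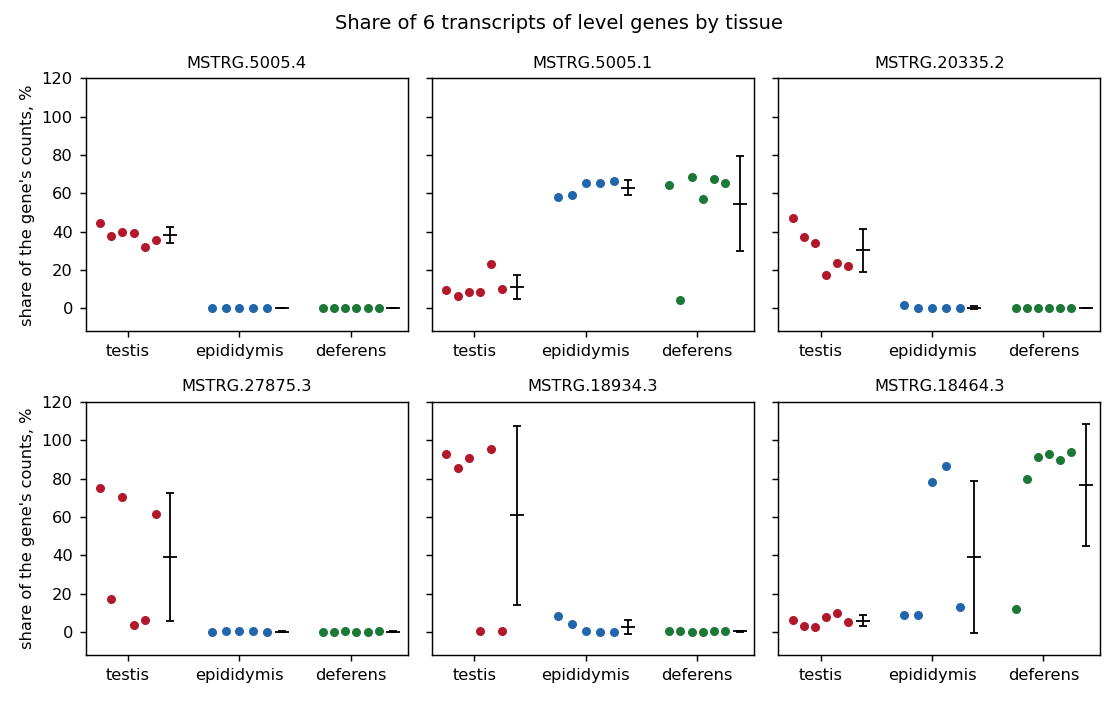
Share of a gene's counts, in percent, held by 6 transcripts of level genes in each library, by tissue, with the mean and SD as a black bar (n = 6, 5 and 6). MSTRG.5005.4 lies between 31.9% and 44.6% in the testes and at 0 in all ducts, whereas MSTRG.18934.3 takes most of the counts in 4 testes and under 1% in the other two.

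In other called level genes the shares differed widely between testes. MSTRG.27875 had rank 11, and its transcript MSTRG.27875.3 held 75%, 70.4% and 61.8% of the counts in the testes of birds 2, 12 and 16, but 17%, 3.63% and 6.39% in those of birds 11, 14 and 15. In all ducts it was at 0.453% or less, so the groups did not overlap. MSTRG.27875.1 led in the epididymides, at 85.2% to 90.6%, and in 5 of the 6 ductus deferens libraries, at 86.0% or more. The ductus deferens of bird 15 was at 7.32%, and MSTRG.27875.2 held 79.0% there. In the testes, MSTRG.27875.1 was at 14.3%, 16.4%, 19.8% and 23.0% in birds 2, 12, 14 and 16. It also led in the testes of birds 11 and 15, at 56.1% and 83.4%, the latter just below the epididymides. The mean difference of MSTRG.27875.1 between testis and epididymis was 52.3 points, the largest of the level genes called there. The gene's adjusted p was 3.4e-04, and its smallest p belonged to a transcript higher in the testis, not to MSTRG.27875.1.

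MSTRG.18494, at rank 10, had a mean difference of 38.6 points in transcript MSTRG.18494.2 between testis and epididymis (adjusted p of the gene 1.7e-04). This mean came from 2 groups of testes. Birds 15 and 16 were at 2.98% and 3.99%, and MSTRG.18494.3 held 56.8% and 63.2% there. In birds 2, 11, 12 and 14, MSTRG.18494.2 was at 46.8% to 83.5% and MSTRG.18494.3 at 2.66% or less. No duct library had a count of MSTRG.18494.3. The smallest p of the gene belonged to a transcript higher in the testis, not to MSTRG.18494.2.

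MSTRG.18934, at rank 37, was called between testis and ductus deferens (adjusted p 5.5e-04). MSTRG.18934.3 took 85.3% to 95.3% of the counts in the testes of birds 2, 11, 12 and 15, but 0.635% and 0.262% in those of birds 14 and 16, and 0.468% or less in every ductus deferens. The testis of bird 16 lay inside the range of the ductus deferens, so the groups overlapped for this transcript. They did not overlap for MSTRG.18934.5, which was at 1.31% or less in the testes and at 11.8% to 79.3% in the ductus deferens. Without bird 15 this gene no longer passed, with an adjusted p of 0.0102.

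The largest differences to the ductus deferens were found in MSTRG.41896 and MSTRG.18464, ranks 43 and 168. MSTRG.41896.1 was at 0.383%, 12.7% and 31.3% in the testes (lowest, median and highest) and at 80.0%, 85.1% and 97.2% in the ductus deferens. These groups were 73.4 points apart by their means and did not overlap. The adjusted p of the gene was 0.0093, and the call was lost without bird 2, 11, 12, 15 or 16 (up to 0.032). MSTRG.18464.3 was at 2.43%, 5.67% and 9.83% in the testes and at 12.2%, 90.7% and 93.7% in the ductus deferens, where bird 2 alone was low, and the groups did not overlap (adjusted p of the gene 8.5e-04). Its epididymides fell apart, with 78.4% and 86.4% in birds 14 and 15 and 8.63% to 13.1% in birds 2, 11 and 16. In both genes the smallest p belonged to a different transcript, higher in the testis. The adjusted p given for the gene is therefore not a test of MSTRG.41896.1 or MSTRG.18464.3 alone.

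How reads were divided between similar transcripts of a locus was decided by the authors' assembly, and a locus may join neighbouring genes. The part that this division had in the shares was not tested. Sequences of the level genes are not shown, because no sequence table or genome was used here.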

How the data were processed

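Libraries were made with a stranded mRNA kit from frozen tissue of 6 birds. The authors trimmed the reads (Trimmomatic), mapped them (STAR) to the turkey genome and merged an assembled annotation over all samples (StringTie). They deposited raw counts per gene (56037) and per transcript (103847), whole numbers without normalization. The counting tool and its use of strand are not given in the sources used here, so overlapping loci are uncertain. Every value column belonged to a labelled sample.

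The level genes, lists and tests were chosen with earlier results of these data known. MSTRG transcripts were assigned to the locus in their name and Ensembl transcripts where the counts left over matched exactly in all 18 libraries (71 of 72 pairs that could be checked against the study's tables were equal). Gene counts were fitted with edgeR 4.0.16 (TMM, filterByExpr, robust quasi-likelihood), transcript usage with its diffSpliceDGE (Simes p per gene), in R 4.3.3, for each pair of tissues without the epididymis of bird 12. Alternatives used DESeq2 1.42.0, limma 3.58.1, RLE, no filter, a term for the bird (replicate block), fits without each bird in turn, and other limits. The code was tested on simulated data, where large usage changes were recovered when 1 set spread was used for all transcripts. None of them was recovered at the spread estimated from these transcripts. Shares and summaries were computed in Python 3.11.15.

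Loci were named by identifier, at most 4 for each part of a rule that took the first by rank, the most counts, the limit, the largest tissue difference, the largest called share differences and the farthest in the library left out. The same bird number was taken to mark the same animal, following the sample labels. By these labels, the testis with 43510 genes with a count is that of bird 12. The paper gives this number to the testis of another bird. Which is right was not tested, and all testis values named by bird follow the labels. The low correlations that follow do not settle the pairing. Deviations of same-numbered libraries from their tissue means had mean correlations of 0.069 between the ducts, 0.037 for the testis with the epididymis and 0.015 for it with the ductus deferens, over 19493 genes.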

Additional observations from a re-analysis of the deposited data

Results flagged for a closer look

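Shares and levels of named level genes were searched for a single bird far from the others of its tissue (Dixon's ratio above its 95% critical value). Chance alone passes this value in about 1 of 20 groups of normally distributed values. Shares with many zeros are not so distributed, so this rate does not hold for them. Where all other birds have no count, the ratio is 1 for any value. In all, 61 groups were examined and 9 passed, all of them transcript shares and none of them a gene's CPM. Shares were searched for a chosen set of transcripts and not for every transcript of these genes, so 9 is not a full tally. CPM was searched only for level genes named for their rank, their counts or their tissue difference. Of the genes that follow, this covers MSTRG.5005 alone. MSTRG.5005.1 was at 23.3% in the testis of bird 15, where the other testes were at 6.31% to 9.96%, and at 4.44% in the ductus deferens of bird 11, where the others were at 57.0% to 68.7%. MSTRG.27875.1 was at 7.32% in the ductus deferens of bird 15, with 86.0% to 94.8% in the other birds. MSTRG.18464.3 was at 12.2% in the ductus deferens of bird 2, with 79.8% to 93.7% in the others, and MSTRG.18464.4 at 0.949% in the same library, with no count in the others. Transcripts outside the search also had such birds. In the ductus deferens, MSTRG.18464.5 held 66.0% in bird 2 and MSTRG.5005.5 held 57.7% in bird 11, each without a count in the others. MSTRG.27875.2 held 79.0% there in bird 15, with 0.632% to 3.69% in the others. MSTRG.41896.4 held 79.5% in the epididymis of bird 11 and had no count in the others.

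MSTRG.41896.7 had such a bird in each tissue, with 46.8% in the testis of bird 11 (others 9.67% to 14.6%), 13.7% in the epididymis of bird 15 (others 2.44% to 4.19%) and 2.83% in the ductus deferens of bird 11 (others 0.995% or less). MSTRG.20335.2 was at 1.76% in the epididymis of bird 2, with 0.031% or less in the others. The totals of these genes, other than MSTRG.5005, were not part of this search. The part of the transcript assignment in these shares was not tested.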

How the results depend on the processing

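The choice of the level genes and the counts of changed transcript usage moved with the processing. Of the 200 level genes, 88 were chosen again with TMM, 96 with the median of ratios, 127 with a minimum of 50 CPM and 54 by the CV of the 3 tissue means, against 134 with all 18 libraries, 171 by the SD of log2 CPM and 191 with a minimum of 10 CPM. Leaving out each bird gave 121 (bird 11) to 183. The alternative without overlapping loci was not run, since it needs coordinates.

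At the gene level, 0 of 200 were called in each comparison under every alternative that kept the fold limit, and 5, 11 and 3 without it (testis to epididymis, testis to ductus deferens, epididymis to ductus deferens, as below). The rule chose genes for level totals in these same libraries, so nothing is read from the gene-level counts under any alternative. Changed transcript usage was called in 7, 13 and 0 level genes. The F test per gene called 17, 22 and 1, with 13.4%, 14.9% and 1.8% of all genes tested, and limma called 28, 30 and 1, with 16.4%, 17.7% and 2.43%. Share ranges without overlap, an alternative chosen after the data were seen, gave 17, 18 and 5. Leaving out each bird gave 4 (bird 12) to 8, 9 to 13 and 0 to 1 (1 without bird 2 and 1 without bird 15), with 5.05% to 6.96%, 7.71% to 10.1% and 0.589% to 1.14% of all genes tested. With the bird as a block, 7, 14 and 0 were called for usage (5.04%, 8.56% and 0.267% of all genes) and 0 at the gene level in each comparison (30.5%, 37.3% and 6.76% of all genes), and the named calls all still passed with this term. With the epididymis of bird 12, the usage counts were 5 and 0 in its 2 comparisons (4.87% and 0.0827% of all genes). Of 92 alternatives for the named usage calls, 82 still passed, 10 did not and 0 reversed. Signs were compared only where the transcript of largest difference stayed the same. For MSTRG.18934 this difference, testis minus ductus deferens, was 60.6 points with all birds. Without bird 2, 11, 12 or 15 it was -57.7, -69.3, -57.8 and -55.5 points, in a different transcript.

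In the library left out, 56 level genes were inside the range by totals, 71 with TMM and 66 with RLE, both chosen after the data were seen. No level gene had fewer than 905 counts in any of the 17 libraries. Beyond the simulation named above, what limits the number of usage calls was not tested.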
